A study of Canis lupus familiaris with 20 samples.

Results

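ROGDI was followed as a single gene, 1 of 10226 gene symbols on a canine Agilent array, through muscle of normal, affected and escaper dogs. The array carries 1 probe named ROGDI, and 6115 genes, ROGDI included, had a probe bright enough to be tested. The gene was singled out because earlier results of these data had shown it lower in dystrophic than in normal dogs, so its levels are given as a description and without a test. Total RNA came from muscle of 10 dogs aged 2 years. There were 4 dogs labelled normal, 4 labelled affected and 2 labelled escaper. Both of the latter groups are labelled with Duchenne muscular dystrophy (DMD), the loss of the muscle protein dystrophin. The word escaper is used for dystrophic dogs that stay mildly affected. The labels give no breed, allele, treatment or name of the muscle. Each dog was hybridised on 2 arrays with swapped dyes against the same reference, which was muscle RNA of 1 individual labelled normal. Values are log2 ratios of dog over reference, averaged over the 2 arrays of a dog, so 0 is the level of the reference and 1 unit is a doubling.

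The ROGDI protein is best known from Kohlschütter-Tönz syndrome, an inherited epilepsy with loss of mental skills and defective tooth enamel that follows loss of the gene. It belongs to the rabconnectin-3 complex, together with DMXL1 or DMXL2 and WDR7. This complex helps the soluble V1 part of the vacuolar proton pump (V-ATPase) join its membrane-bound V0 part. The assembled pump acidifies lysosomes, endosomes and synaptic vesicles, and lysosomes are also where mTORC1 senses amino acids.

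All ROGDI values rest on 1 oligonucleotide of 60 bases, shown here because no other probe on the array bears the gene's name. The 4 probes that carry the names of its 3 partners are shown beside it, because their dimness decides what can be said of the complex. They are printed 5′ to 3′ as the array files give them.
ROGDI: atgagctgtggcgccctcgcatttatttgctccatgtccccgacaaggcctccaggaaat
DMXL1: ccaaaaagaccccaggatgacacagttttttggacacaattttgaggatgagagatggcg
DMXL2, first probe: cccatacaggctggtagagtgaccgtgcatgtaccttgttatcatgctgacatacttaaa
DMXL2, other probe: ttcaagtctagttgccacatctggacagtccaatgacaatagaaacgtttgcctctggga
WDR7: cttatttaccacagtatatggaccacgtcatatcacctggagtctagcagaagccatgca
The files place the ROGDI probe at chr6:39666304-39666363 on a genome build they do not name, and assign it to transcript ENSCAFT00000030430. Its place within the exons or UTRs of that transcript was not analysed here. Its GC content was 55%, against a median of 45% over all probes. The longest stretch it shares with any other probe of the array is 14 bases, found in 2 probes. It was well above background in both channels on all 20 arrays, and saturated or flagged as an outlier on 0 of them.

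ROGDI was higher than the reference in every normal dog and lower than the reference in every dystrophic dog. The log2 ratios in normal dogs were 1.63 in normal 1, 1.69 in normal 2, 1.26 in normal 3 and 2.36 in normal 4. In affected dogs they were −0.64 in affected 1, −0.31 in affected 2, −0.74 in affected 3 and −0.58 in affected 4. The escapers had −0.46 in escaper 1 and −0.66 in escaper 2. The values of the 6 dystrophic dogs lay together and did not overlap those of the 4 normal dogs, and both escapers lay inside the range of the affected dogs. The lowest normal dog stood 1.56 log2 units above the highest dystrophic dog.

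**Figure D1:**
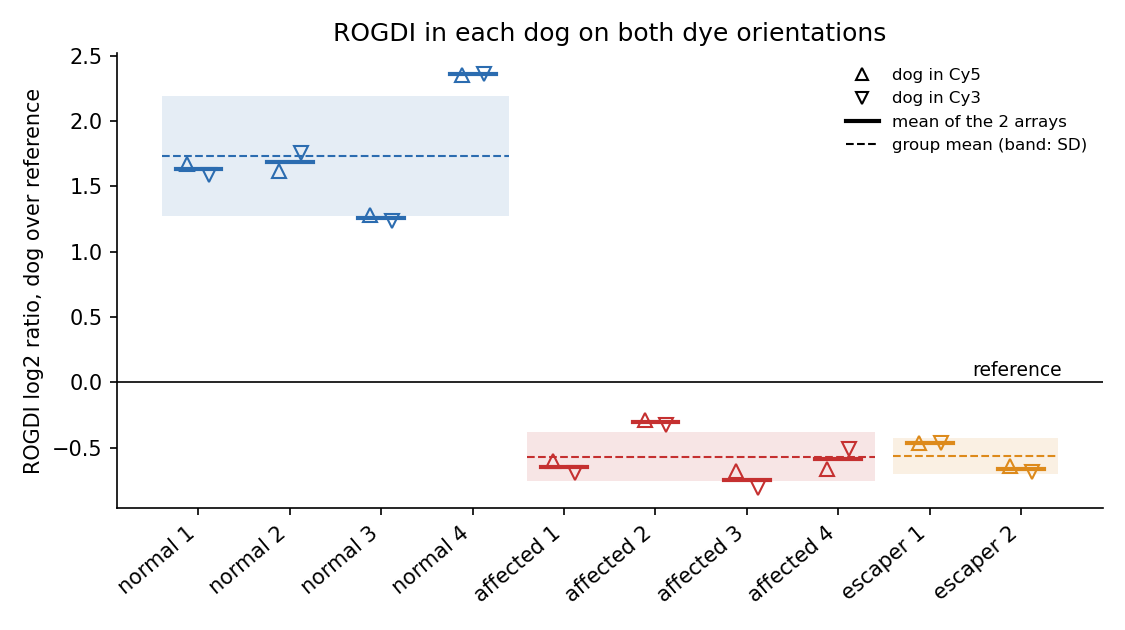
ROGDI log2 ratio of dog over reference (vertical axis) in each of 10 dogs, with triangles for the array with the dog in Cy5 or Cy3, solid bars for the mean of the 2 arrays, dashed lines for group means and bands for 1 SD. The 4 normal dogs sit between 1.26 and 2.36, and the 6 dystrophic dogs between −0.74 and −0.31.

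As group means, ROGDI stood at 1.73 ± 0.46 (SD, n = 4) in normal, −0.57 ± 0.19 (SD, n = 4) in affected and −0.56 ± 0.14 (SD, n = 2) in escaper dogs. Affected dogs were lower than normal dogs by a log2 difference of −2.30 (SE 0.22, 95% interval −2.80 to −1.81), a 4.93-fold lower level. Escaper dogs were lower than normal dogs by −2.30 as well (SE 0.27, 95% interval −2.90 to −1.69), a 4.91-fold lower level. These standard errors and intervals come from a limma fit over all tested probes in which the 3 groups share 1 estimate of the spread. Escapers and affected dogs differed by 0.01 (SE 0.27), with a 95% interval from −0.60 to 0.61. A difference of up to about 0.6 in either direction between the forms of the disease lies within that interval. Its width rests on 2 escapers and on a spread shared with the normal dogs, whose SD was the widest. Without normal 4 the SE was 0.19. Nothing in the labels ties the dogs to litters, and the dog is the replicate throughout.

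Ordered from the highest, the dogs ran normal 4, normal 2, normal 1, normal 3, then affected 2, escaper 1, affected 4, affected 1, escaper 2 and affected 3. Normal 4 was 0.67 above the next dog, and normal 1 was 0.37 above normal 3. Among dystrophic dogs each step in the order was at most 0.16. The 2 arrays of a dog differed by between 0.0019 and 0.15 in log2 ratio, so most neighbours among the dystrophic dogs cannot be ordered beyond the difference of their own arrays. Mean absolute difference between the 2 arrays was 0.0727 for ROGDI and 0.259 for the median tested probe, and 6 of 16008 tested probes had a smaller one. The spread among normal dogs was wide by comparison, since 95.6% of tested probes had a lower SD over the 4 normal dogs. Among affected dogs, 24.3% of tested probes had a lower SD than ROGDI, and among escapers 25.1%. Normal 3 and normal 4, the lowest and highest normal dogs, shared 1 slide.

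In the separate channels, too, normal dogs stood above both dystrophic groups. The processed signal of the ROGDI probe in the dog's channel ran from 4511 to 9490 with a median of 6119 over the 8 arrays of normal dogs. It ran from 773 to 1204 with a median of 862 over the 8 arrays of affected dogs. On the 4 arrays of escapers it ran from 915 to 1098. The lowest array of a normal dog was therefore brighter than the brightest array of any dystrophic dog. The reference channel of the same spots ran from 1183 to 2226 over the 20 arrays. Relative to the 75th percentile of each channel, the reference had mean log2 levels of 2.02 ± 0.04 (SD, n = 4) on the arrays of normal dogs, 1.93 ± 0.19 (SD, n = 4) on those of affected dogs and 1.87 ± 0.11 (SD, n = 2) on those of escapers. On the same scale the dogs' own channel stood at 4.08 ± 0.48 (SD, n = 4), 1.29 ± 0.27 (SD, n = 4) and 1.12 ± 0.19 (SD, n = 2). The groups thus separated in the dogs' channel, while the group means of the reference channel lay close to each other. Taken from the dog's channel alone, affected minus normal was −2.79 (SE 0.29) and escaper minus normal −2.96 (SE 0.35).

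**Figure D2:**
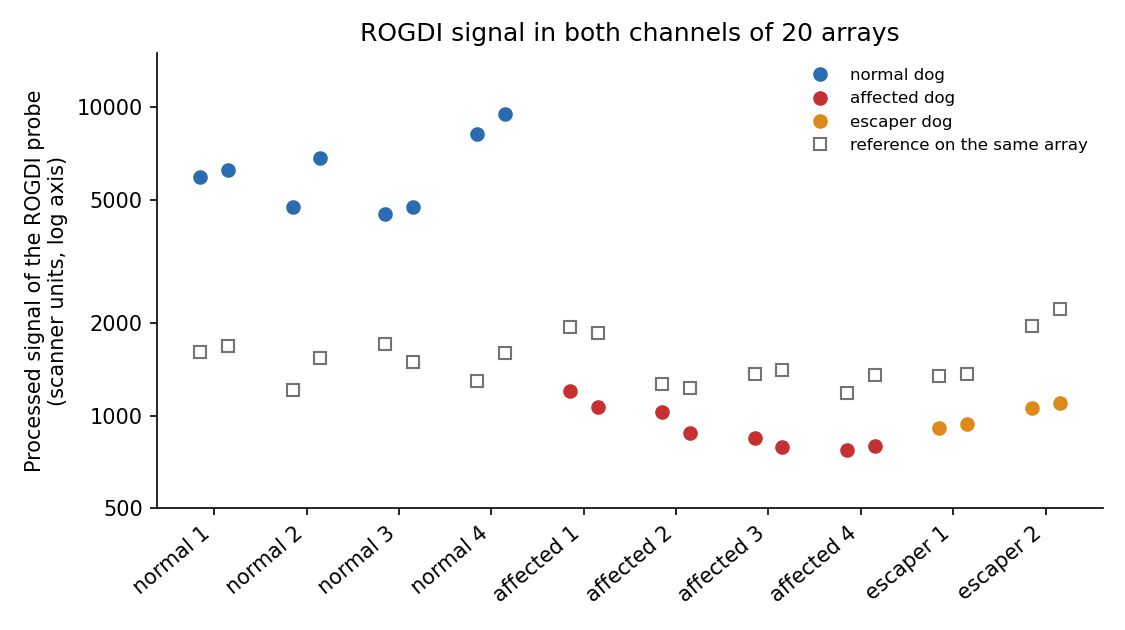
Processed signal of the ROGDI probe in scanner units (vertical axis, log scale) in the dog's channel (filled circles) and the reference channel (open squares) of the 20 arrays, 2 per dog. Signals of normal dogs run from 4511 to 9490 and those of dystrophic dogs from 773 to 1204, with the reference between 1183 and 2226.

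The reference, although labelled normal, held less ROGDI than the 4 normal dogs measured against it. Normal dogs were 3.33-fold above it (log2 ratio 1.73, SE 0.16, 95% interval 1.39 to 2.08). Affected dogs were 1.48-fold below it (−0.57, SE 0.16, interval −0.92 to −0.22), and escapers 1.48-fold below it too (−0.56, SE 0.22, interval −1.06 to −0.07). These ratios leave out the spread between reference animals, because 1 individual supplied the RNA. A reference closer to the dystrophic dogs was common on these arrays. The 6 dystrophic dogs lay below all 4 normal dogs for 807 of 16008 probes (5.04%), and in 695 of those 807 (86.1%) the reference was nearer to the dystrophic mean. Among the 569 probes (3.55%) with all dystrophic dogs above all normal dogs, it was nearer to the dystrophic mean in 461 (81.0%). A normal group wholly above and a dystrophic group wholly below the reference, as for ROGDI, was seen for 61 probes (0.381%). The same reference RNA was used on every array.

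Over the whole array the limma fit, with Benjamini-Hochberg adjustment over 16008 probes, called 3 probes (0.0187%) in affected against normal dogs at an adjusted p under 0.05. Since ROGDI was chosen on this contrast, nothing is read from its own place in that count. In escaper against normal dogs and in escaper against affected dogs 0 probes (0%) were called by the same fit. At an unadjusted p under 0.05 the 3 comparisons held 12.4%, 18.4% and 5.22% of probes. The count of 3 changed with single dogs. Leaving out normal 2, affected 2 or affected 4 gave 0. Leaving out normal 3 or normal 4 gave 1, affected 3 gave 6, affected 1 gave 22 and either escaper gave 113. A fit with only the affected and normal groups also gave 113. With all dogs kept, the fit of 3 groups gave 0 in both comparisons of escapers, and these counts depended on which escaper was left out. Such a fit leaves 1 escaper, taken to vary like the other groups, so its counts in escapers are not read as results. Leaving out affected 1 gave 9 in escaper against normal dogs. In size, which is a description here, 11 probes (0.0687%) were lower in affected dogs by at least as much as ROGDI, ROGDI counted. A gap between the nearest normal and dystrophic dogs as wide as that of ROGDI was found in 2 probes (0.0125%), ROGDI being 1 of them.

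The other subunits of the rabconnectin-3 complex could not be followed beside ROGDI. All 3 partners have probes on the array, and 0 of 3 passed the filter on dim probes. In the channel of the dog, the DMXL1 probe cleared the background on 1 of 20 arrays, the first DMXL2 probe and the WDR7 probe on 2 of 20 each, and the other DMXL2 probe on 0. These probes are not well above background, which gives no level and no direction for the genes.

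Among all 6115 tested genes, 1 was called in affected and 0 in escaper dogs, so a count of 0 in a short list matches the background and says nothing particular of the list. Of 13 genes for V1, the soluble part that splits ATP, 5 were tested and 0 were called in affected dogs, with a median log2 difference from normal of 0.29 against 0.05 over all tested genes. Without affected 1 this median was 0.16. ATP6V1B2, a subunit of the ring that splits ATP, differed by 0.40 (SE 0.18, adjusted p = 0.41) in affected and by 0.55 (SE 0.22, adjusted p = 0.24) in escaper dogs. ATP6V1C1, a stalk subunit, differed by 0.29 in affected and 0.03 in escaper dogs, ATP6V1D, of the central rotor, by 0.33 and 0.10, and ATP6V1G2, of the peripheral stalks, by −0.11 and −0.29. In escapers the V1 median was 0.10, against 0.00464 over all tested genes, with 0 called.

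Of 11 genes for V0, the proton channel in the membrane, 8 were tested and 0 were called, with medians of 0.28 in affected and 0.33 in escaper dogs. TCIRG1 encodes the a3 subunit, used in bone-resorbing and immune cells. Its log2 ratios lay between −1.97 and −1.30 in normal, −0.90 and −0.48 in affected dogs, and were −0.89 and 0.69 in the escapers. The TCIRG1 values of normal and dystrophic dogs did not overlap, as for 569 of 16008 probes (3.55%) with all dystrophic above all normal dogs. Its differences from normal of 0.80 (SE 0.31) and 1.41 (SE 0.37) had adjusted p of 0.35 and 0.19 by limma. ATP6V0A1, another form of the a subunit, differed by 0.55 (SE 0.32) and 0.50 (SE 0.39), and ATP6V0D1, which links V0 to the rotor, by 0.26 (SE 0.19) and 0.73 (SE 0.23). The V0 median in affected dogs was −0.02 without affected 1.

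Among 10 assembly and accessory factors of the pump, 2 were tested and 0 were called. OXR1, a member of the TLDc family whose proteins can bind and disassemble the V-ATPase, differed from normal by −0.59 (SE 0.24, adjusted p = 0.36) in affected and −0.66 (SE 0.29, adjusted p = 0.27) in escaper dogs. Its values ran from 0.67 to 1.15 in normal and from −0.33 to 0.68 in dystrophic dogs, so the groups met. ATP6AP1, an accessory subunit needed for assembly, differed by −0.01 and −0.05.

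Downstream of the pump, the mTORC1 and TFEB list, which holds the Ragulator and Rag proteins that anchor mTORC1 to lysosomes, had 16 of 22 genes tested and 0 called. Its medians were −0.02 in affected and −0.18 in escaper dogs, and without affected 1 the former was −0.18. LAMTOR5, a Ragulator subunit, differed by −0.33 (SE 0.13) in affected and −0.60 (SE 0.16) in escaper dogs. Its values ran from 0.23 to 0.39 in normal and from −0.46 to 0.18 in dystrophic dogs. They did not overlap, as for 807 of 16008 probes (5.04%) in that direction. MITF, a transcription factor of the TFEB family, differed by −0.50 (SE 0.20) and −0.75 (SE 0.25). RHEB, the small GTPase that switches mTORC1 on, differed by −0.22 (SE 0.19) and −0.81 (SE 0.23), and LAMTOR1, the Ragulator subunit that holds the complex on the membrane, by −0.26 and −0.14.

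The lysosomal enzymes and membrane proteins had 24 of 36 genes tested, of which 0 were called in either comparison. At an unadjusted p under 0.05, 3 were higher in affected and 10 in escaper dogs, beside 5.06% and 9.67% of all probes. Their medians were 0.29 in affected and 0.59 in escaper dogs. Macrophage markers had higher group means too, with a median difference of 0.56 in affected dogs and of 1.36 in escapers. On the mean of the escapers 10 of 10 were higher, beside 3083 of 6115 tested genes, and 5 had an unadjusted p under 0.05 by limma. This was not a trait of each dog. The mean over the 10 markers was −1.08 in escaper 1 and 1.20 in escaper 2. It was −1.22 in affected 1, and ran from −1.47 to −1.10 in normal dogs. MSR1, 1 of the 10, was well above background on only 4 of 20 arrays. Cathepsin S (CTSS), the lysosomal gene with the widest difference (1.41 and 2.61, singled out after its values were seen), belongs to both lists, and the part of macrophages was not tested. GLB1, the lysosomal beta-galactosidase, had log2 ratios from −0.51 to −0.33 in normal dogs and from −0.06 to 0.94 in dystrophic dogs. There was no overlap, as for 3.55% of all probes in that direction. Its differences were 0.68 (SE 0.22, adjusted p = 0.29) and 0.89 (SE 0.27, adjusted p = 0.19) by limma. CD63, a tetraspanin of late endosomes, differed by 0.64 (SE 0.25) and 1.09 (SE 0.31), PSAP, the precursor of the saposins, by 0.81 (SE 0.33) and 0.77 (SE 0.41), and LAPTM4A, a lysosomal membrane protein, by 0.29 (SE 0.19) and 0.91 (SE 0.23). With escaper 1 left out, escaper 2 alone differed from normal dogs by 1.39 in GLB1, 1.41 in CD63, 1.18 in LAPTM4A and 2.20 in TCIRG1. It differed by 1.19 in ATP6V0D1, 0.90 in ATP6V1B2, −0.79 in LAMTOR5 and −1.19 in RHEB. These are values of 1 dog.

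Presynaptic vesicle genes, listed because ROGDI is mostly studied in neurons, had 3 of 17 members tested and 0 called. RAB3GAP1, which regulates the vesicle GTPase RAB3, differed by −0.37 (SE 0.13) in affected and 0.01 (SE 0.16) in escaper dogs. CPLX1, a complexin that clamps vesicle fusion, differed by −0.24 and −0.26, and VAMP2, a vesicle SNARE, by −0.16 and −0.24. No tested member of any of these lists differed from normal dogs in the negative direction by as much as ROGDI. Only 11 of 16008 probes (0.0687%), ROGDI counted, were as low in affected dogs. ROGDI was chosen for its low level, so this says nothing particular of the lists.

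**Figure D3:**
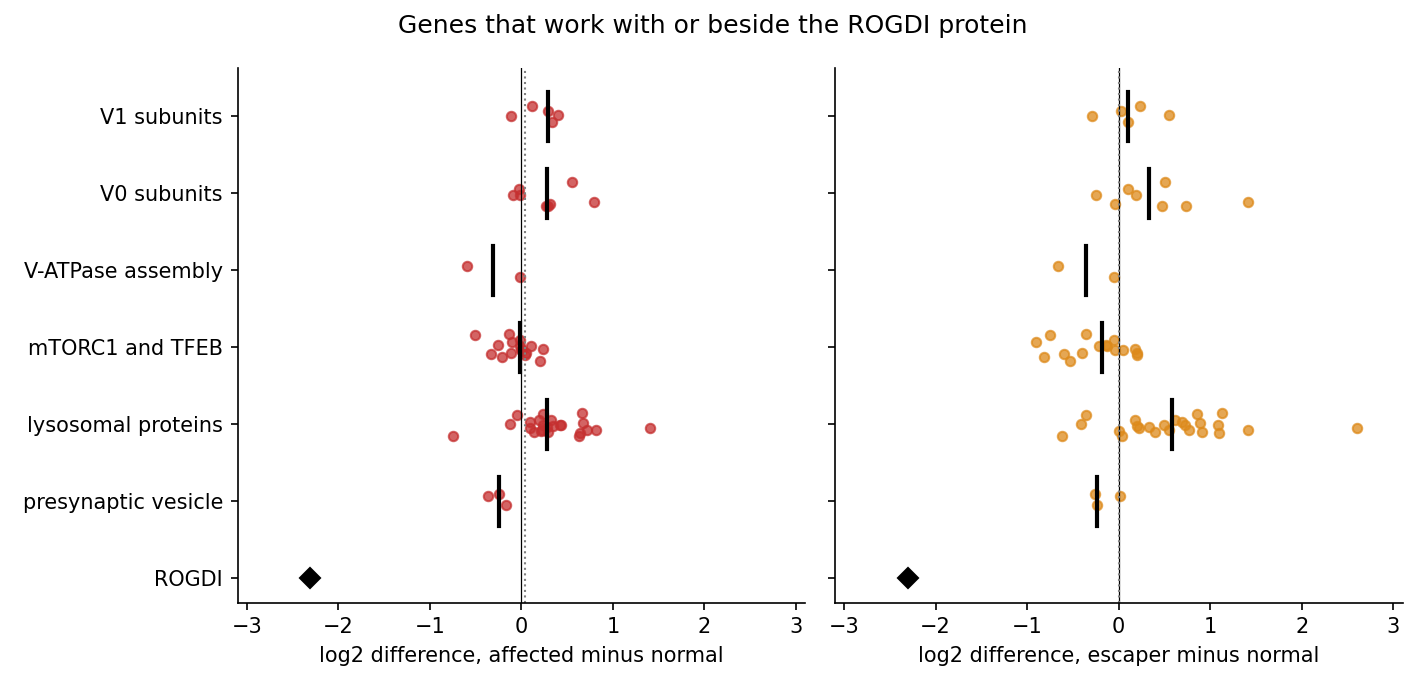
Log2 difference from normal dogs (horizontal axis) of each tested gene in 6 lists, in affected (left) and escaper dogs (right), with black bars for list medians, dotted lines for the median of all tested genes and a diamond for ROGDI. List members lie between −0.90 and 2.61, and ROGDI at −2.30 in both comparisons.

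ROGDI was chosen for its difference from normal dogs, which ranked 25 of 16008 probes in size in affected and 116 in escaper dogs. The smaller differences of genes beside it on its chromosome therefore say nothing particular of these genes. Within 500 kb of the ROGDI probe lie 45 other probes, 24 of them tested. Of these 0 were called in either comparison, where 0.0187% and 0% of all probes were. Their differences in affected dogs ran from −0.63 to 1.24 with a median of 0.04, and in escapers from −0.88 to 1.76 with a median of 0.03. At an unadjusted p under 0.05 by limma, 3 of 24 differed in affected dogs, 1 lower and 2 higher, and 5 in escapers, 3 lower and 2 higher. Beside 12.4% and 18.4% of all probes, these counts say nothing particular of the neighbourhood. In both comparisons the 2 higher were probes of 1 gene, PPL, and 2 of the 3 lower in escapers were probes of DNAJA3. MAGMAS, a mitochondrial import gene singled out after its values were seen, was the 1 lower in affected dogs, by −0.39 (SE 0.15, adjusted p = 0.35), and differed by −0.66 (SE 0.18, adjusted p = 0.19) in escapers. The nearest tested gene on one side, at 82.4 kb, was PPL, which encodes the cytolinker periplakin. PPL differed in the opposite direction, by 1.24 (SE 0.48, adjusted p = 0.36) in affected and 1.76 (SE 0.59, adjusted p = 0.20) in escaper dogs. With escaper 1 left out, the latter value was 3.05. The other tested probe of PPL had smaller differences, of 0.53 (SE 0.23) in affected and 0.93 (SE 0.28) in escaper dogs. ALG1, a mannosyltransferase of N-glycan synthesis on the same side, differed by 0.21 and 0.46. On the other side ANKS3, an ankyrin-repeat protein at 86.1 kb, differed by 0.15 and 0.33, NUDT16L1 by −0.29 and −0.01, and the ubiquitin ligase MGRN1 by 0.11 and 0.07. Farther out, CDIP1 differed by −0.18 and −0.78, NMRAL1 by −0.63 and −0.21, and the mitochondrial chaperone DNAJA3 by −0.23 and −0.88, with −1.36 in escaper 2 alone. Other tested probes of DNAJA3 differed by 0.05 and −0.16 in affected dogs, and by −0.40 and −0.69 in escapers. Directions of ALG1 and MGRN1 in affected dogs and of NUDT16L1 and MGRN1 in escapers turned under at least 1 other setting.

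**Figure D4:**
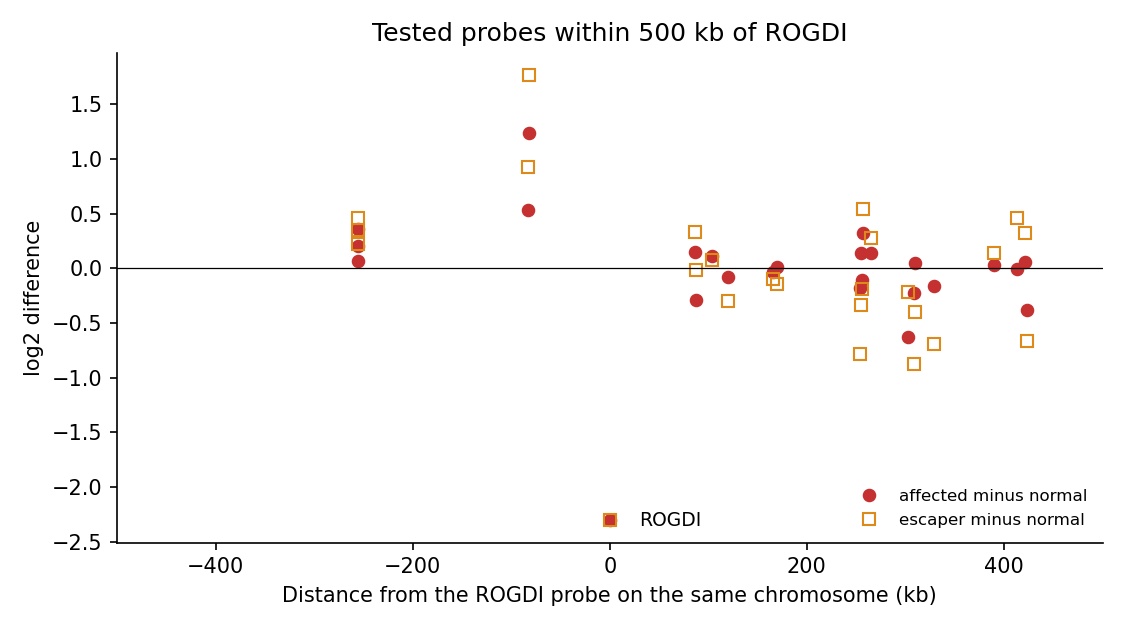
Log2 difference of affected (filled circles) and escaper dogs (open squares) from normal dogs (vertical axis) for the tested probes within 500 kb, by distance from the ROGDI probe in kb (horizontal axis). ROGDI lies at −2.30 in both, and its neighbours between −0.88 and 1.76.

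Over the 10 dogs, 13 of 6114 other genes had a Pearson r over 0.9 with ROGDI and 7 had r under −0.9. All points share the reference and the split between normal and dystrophic dogs, so r is a description without a test, and the r of deviations from group means is given beside it. The most alike were C37H2orf69 (r 0.96, within groups 0.66), ABHD14A (0.94 and 0.62), HTRA4 (0.94 and 0.65), ABLIM3 (0.94 and 0.73) and PADI2 (0.93 and 0.42). C37H2orf69, the dog counterpart of a human mitochondrial disease gene, ran from 0.33 to 0.77 in normal and from −0.66 to −0.18 in dystrophic dogs. ABLIM3, an actin-binding LIM protein, ran from 0.20 to 0.67 in normal and from −0.54 to −0.05 in dystrophic dogs. These 5 genes had smaller differences than ROGDI here, from −0.40 to −0.87 in affected dogs. HTRA4 and PADI2 were dim, with 8 and 9 of 20 arrays well above background. In the deposited value table HTRA4 differed by −2.95 in affected and −3.18 in escaper dogs, more than ROGDI with −2.67 and −2.78 in that table.

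The most opposite genes were H19 (r −0.94, within groups −0.74), JUP (−0.93 and −0.46), GPR177 (−0.93 and 0.03), MANBAL (−0.91 and −0.71) and LGALS3 (−0.90 and −0.42). H19, an imprinted noncoding RNA, ran from −3.09 to −2.38 in normal and from −2.03 to −1.35 in dystrophic dogs. Its reference channel was saturated on all 20 arrays and the dogs' channel on 0, so its ratios to the reference, and the r that rests on them, are not exact. Normal 4, the dog with the most ROGDI, had the lowest value of H19, of JUP, which encodes the junction protein plakoglobin, and of LGALS3, which encodes the macrophage-rich lectin galectin-3. LGALS3 differed by 2.48 (SE 0.48) in affected and 2.55 (SE 0.58) in escaper dogs. Since these 10 genes were picked by their likeness to ROGDI over the same dogs, their differences between groups are a description, with no test.

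**Figure D5:**
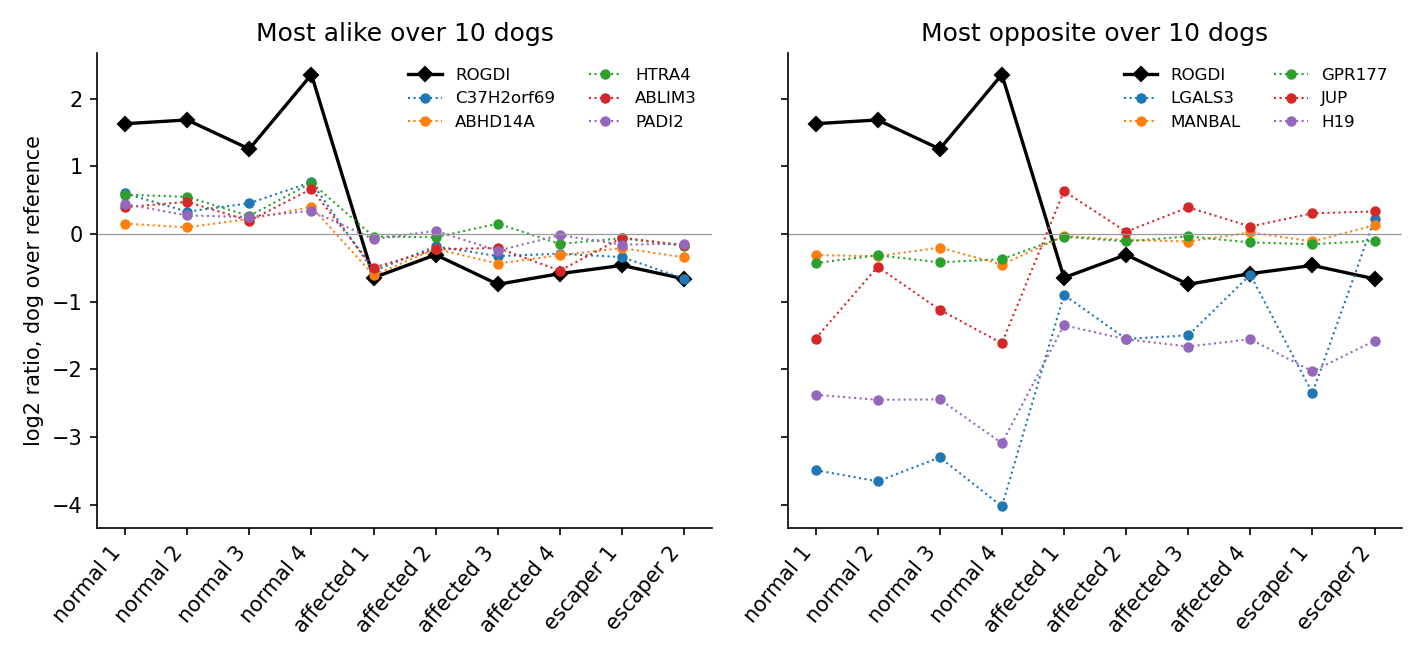
Log2 ratio of dog over reference (vertical axis) in each of 10 dogs for ROGDI (black diamonds) and the 5 genes with the highest (left) and lowest (right) Pearson correlation with it. Each group of genes changes level between the normal and the dystrophic dogs, and the genes on the left do so by less than ROGDI on this scale.

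Markers of the cells that muscle RNA can hold also had different mean levels in the groups. All 6 tested markers of muscle fibres had lower group means in affected dogs, with a median difference of −0.91 and 0 called. Affected 1 was the lowest affected dog for each of them. Other affected dogs reached above the normal mean for MYH7, TTN, TNNT3 and ACTN3, and stayed below it for MB and PYGM. Mean log2 ratio over these 6 genes ran from 0.66 to 0.93 in normal dogs, from −1.90 to 0.46 in affected dogs, and was 0.70 in escaper 1 and −2.15 in escaper 2. TNNT3 was saturated in either channel on 19 of 20 arrays and TTN on 13. Over the 4 markers without them, the mean ran from 0.81 to 1.23 in normal dogs, from −2.23 to 0.41 in affected dogs, and was 0.71 and −2.03 in the escapers. Macrophage markers were higher in 8 of 10 cases in affected and 10 of 10 in escaper dogs, and their mean ran from −1.47 to −1.10 in normal, −1.22 to 0.01 in affected and −1.08 to 1.20 in escaper dogs. Fibroblast and matrix markers were higher in 10 of 11 cases in both, and their mean ran from −0.98 to −0.57 in normal, −0.95 to 1.06 in affected and −0.21 to 2.07 in escaper dogs. Of these 2 lists 0 genes were called. Over all 6115 tested genes, 3434 were higher and 2681 lower in affected dogs, and 3083 were higher in escapers. COL1A1, POSTN and MSR1 were dim, well above background on 4 of 20 arrays each, and PDGFRA on 6. A dim gene could pass the filter through the dogs in which it was high, so these counts are a description. Mean levels of 6 endothelial markers ran from −0.11 to 0.12, −0.45 to −0.02 and −0.30 to 1.08 in the 3 groups, and those of 7 adipocyte markers from −0.01 to 0.27, −0.22 to 0.31 and −0.08 to 0.31. Nerve and Schwann cell markers, with 3 of 10 tested, had means from −0.76 to −0.31, −0.32 to 1.55 and −0.32 to 0.12. Of 10 T and NK cell markers only NKG7 was tested, at 0.48 to 1.18, −2.40 to 0.30 and −1.33 to 0.70, with saturation in either channel on 11 of 20 arrays. In bulk muscle, fewer cells of a type and less RNA per cell cannot be told apart.

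The 2 dystrophic dogs with the lowest fibre marker levels, affected 1 and escaper 2, had ROGDI at −0.64 and −0.66, the third and second lowest of the 6, while the other 4 dystrophic dogs, with fibre marker means from 0.24 to 0.70, had ROGDI between −0.74 and −0.31. Without affected 1 and escaper 2 together, ROGDI was lower by −2.28 (SE 0.24) in affected and by −2.20 (SE 0.35) in escaper dogs, against −2.30 in both with all dogs. This omission was chosen after seeing the data and leaves 1 escaper. The part of fibre and other cell markers in the ROGDI difference was not tested. Each slide carried 2 dogs of 1 group, so slide and group cannot be told apart for the escapers, which lay on 1 slide, and no difference between groups could be taken within a slide. The probe named DMD, the dystrophin gene, differed by 0.03 (SE 0.16, adjusted p = 0.95) in affected and −0.21 (SE 0.20, adjusted p = 0.60) in escaper dogs by limma. Its place relative to the dogs' mutation is not given in the sources used here, so it checks no label.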

How the data were processed

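According to the deposited file headers, Agilent Feature Extraction 9.5.3.1 measured the mean and local background intensity of each spot in both dyes. It also wrote processed intensities, log10 ratios of the 2 dyes and other flags for brightness and outliers, per the file headers. The authors' deposited table of log2 ratios equalled log2 of processed dog over processed reference, swapped arrays already turned. Its columns were not centred, with medians from −0.16 to 0.25, and the reason is not given in the sources used here.

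Mean signals were corrected with normexp (offset 50) and normalised by loess within arrays in limma 3.58.1 (R 4.3.3), with control spots at weight 0. Ratios were turned to dog over reference, control and outlier-flagged spots were dropped, and the 2 arrays of a dog were averaged. Of 42034 probes, 16130 exceeded background clearly (a scanner flag) in the channel of the dog for both arrays of 2 dogs or more, and 16008 with a value in every dog were tested. Across arrays, that flag held for 30.5% to 60.2% of probes, and r between both arrays of a dog lay between 0.627 and 0.939. The number of dogs limits the precision. Dogs are numbered in file order as names only. One fit with 3 groups, eBayes and Benjamini-Hochberg adjustment gave 3 comparisons. Simulated data, with an equal spread in all groups, checked only affected against normal dogs. Dogs were not stated to come from separate litters, so p-values measure the spread between these dogs.

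ROGDI, the gene lists and the tests were chosen with earlier results of these data known. A gene stands for its tested probe with the highest mean log2 intensity. Named genes were ROGDI, its partners, in each list the up to 3 lowest p in affected and up to 2 in escaper dogs, up to 6 nearest tested genes on each side within 500 kb, the 5 highest and 5 lowest correlations with ROGDI, and DMD. Symbols were updated through RefSeq names (assembly UU_Cfam_GSD_1.0), which gave 12106 probes a symbol. Alternatives were the value table, median centring, Aquantile, no background subtraction, each dye alone, each dog left out, no filter, slide as a random block, only the groups compared, and the mean of a gene's probes. Use of the dog's channel alone, leaving out affected 1 and escaper 2 together, and marker means without saturated probes, were added after seeing the data.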

Additional observations from a re-analysis of the deposited data

Results flagged for a closer look

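In 80 sets of 4 dogs, normal or affected, for ROGDI and the other named genes, 3 had a dog far from the rest. Chance flags about 1 in 20 such sets. ATP6V1D in affected 1 had a log2 ratio of 0.43, while the other affected dogs lay between −0.29 and −0.25. TCIRG1 in normal 3 was at −1.97, with the other normal dogs between −1.40 and −1.30. H19 in normal 4 was at −3.09, with the other normal dogs between −2.45 and −2.38, but its reference channel was saturated on all 20 arrays, so these ratios are not exact. For ROGDI the gap of the most distant dog was 0.61 of the range in normal and 0.638 in affected dogs, less than Dixon's critical value for 4 samples.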

How the results depend on the processing

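ROGDI kept its direction from normal dogs under each alternative run. The deposited value table moved affected minus normal to −2.67 and escaper minus normal to −2.78, the dog's channel alone to −2.79 and −2.96, and leaving out each dog gave −2.46 to −2.10 and −2.45 to −2.09. Escaper minus affected lay between −0.21 and 0.11 over all alternatives, −0.09 to 0.11 with each dog left out. Against the reference, median centring gave −0.81 in affected and −1.02 in escaper dogs, and the value table −0.75 in escapers. Each dog left out gave 1.53 to 1.89 in normal, −0.66 to −0.51 in affected and −0.66 to −0.46 in escaper dogs. For these shifts the cause was not tested.

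Counts of called probes moved most. Affected against normal dogs gave 31 with the value table, 19 without background subtraction, 7 in Cy5 and 1 in Cy3 alone. It gave 114 with slide as a random block (consensus correlation −0.27) and 113 with only the 2 groups. With each normal or affected dog left out it gave 0 to 22. Each slide held dogs of 1 group, so a negative correlation narrows the standard errors between groups. Counts with the slide block are therefore not read as stronger results. Escaper against normal dogs gave 4 with the value table, 1 without the filter, 522 with the slide block, and 0 to 3920 with each dog left out, and escaper against affected dogs 0 to 1755. Both upper ends came from the fit without escaper 1. That fit leaves 1 escaper, taken to vary like the other groups, so its counts in escapers are not read as results. List medians moved to −0.39 for presynaptic genes in the value table. With each dog left out, list medians ran from −0.0166 to 0.342 for V0 and −0.176 to 0.0216 for mTORC1 and TFEB genes. Of 78 named-gene differences 12 changed sign under some alternative, none of them at an unadjusted p under 0.05. HTRA4, a dim probe, differed by −2.95 in the value table against −0.56, and PADI2 by −1.83 against −0.40. No paired analysis was possible because the labels carry no replicate numbers shared by groups.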

Other observations

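ROGDI was chosen because it was lower in dystrophic dogs, so its wide gap between the groups is a description only. The probe with the widest gap between normal and dystrophic dogs bears no gene symbol and lies at chr5:36234161-36234220 on the build of the files. It ran the other way, with mean log2 ratios of −2.89 in normal, 0.27 in affected and −0.24 in escaper dogs, and a gap of 1.86. SPP1, which encodes the cytokine osteopontin, had the third widest gap, with means of −7.55, −3.78 and −3.03. The next in line, without a symbol, lie at chr16:4054994-4055053 and chr4:16179383-16179442. Their means were 1.62, −0.73 and −0.47 at the former and 1.87, −0.52 and −0.44 at the latter, each high in normal dogs and below the reference in both dystrophic groups. These probes were singled out after their values were seen.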
